A study of Mus musculus with 9 samples.

Results

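Ribosome-associated RNA of the hyperpolarization-activated cyclic nucleotide-gated (HCN) channel genes Hcn2, Hcn3 and Hcn4 and of Pex5l, the gene of their auxiliary subunit TRIP8b, was measured. It came from ribosome pulldowns aimed at parvalbumin inhibitory neurons (PV INs) of the mouse CA3/CA2. The 4 genes were chosen by name from 37620 gene identifiers, and all 4 were among the 15069 genes that reached at least 1 CPM (reads of a gene scaled to a common number of reads on all genes) in at least 1 sample. All mice were PV-Cre; Rpl22HA f/f animals of both sexes, 2 months old, in which Cre driven from the parvalbumin locus tags ribosomes with an HA epitope. Lentivirus carrying GFP and a non-target shRNA (shNT, 5 samples) or GFP and an shRNA against Ablim3 (shRNA, 4 samples) was injected into the dentate gyrus (DG), and CA3/CA2 tissue of 6 mice was pooled for each sample 2 weeks later. The knockdown was thus made in the DG, whose mossy fibers contact PV INs. The sequenced RNA was pulled down with the tagged ribosomes of CA3/CA2 PV INs, whether or not altered fibers contacted them. RNA of other cells came along, as given below. Samples of a group are separate pools, and individual mice cannot be resolved.

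HCN channels open when the membrane hyperpolarizes and pass an inward cation current that sets resting potential, input resistance and rhythmic firing. Cyclic AMP (cAMP) binds a domain in their cytoplasmic C terminus and eases opening, strongly in HCN2 and HCN4 and weakly in HCN3. In fast-spiking interneurons HCN channels act on the soma and the axon. TRIP8b binds the cAMP-binding domain and the extreme C terminus of HCN subunits, steers their trafficking and opposes the effect of cAMP.

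The C-terminal end, where the tetratricopeptide repeats of TRIP8b dock, differs in its bases among the 3 channel genes, and the ends of their coding sequences are shown for this reason. Each run of 30 bases is read from the mm9 genome on the coding strand, ends with the stop codon, and has the last 3 codons before the stop in capitals.
Hcn2: gcgcgctcgcgcctctctTCCAACTTGtga
Hcn3: agaggtccccaaatttctGCCAACATGtga
Hcn4: gtacgctccaaactgccgTCTAATTTAtga
These lie at chr10:79198256-79198285 (plus strand), chr3:88951521-88951550 (minus strand) and chr9:58708541-58708570 (plus strand), each in the last coding exon. Hcn2 and Hcn4 share 0 of these 3 codons but all 3 encoded residues, with 6 of 9 bases identical. Hcn3 shares 1 of 3 residues with Hcn2 and 1 of 3 with Hcn4.

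Hcn2 (ENSMUSG00000020331) spans 19.48 kb on mm9 chromosome 10 (79179379 to 79198853, plus strand), with 8 exon blocks. Hcn3 (ENSMUSG00000028051) spans 14.12 kb on chromosome 3 (88949996 to 88964118, minus strand). Hcn4 (ENSMUSG00000032338) spans 37.44 kb on chromosome 9 (58671319 to 58708762, plus strand). Pex5l (ENSMUSG00000027674) is by far the longest, at 193.6 kb on chromosome 3 (32848553 to 33042169, minus strand), and has 8 annotated transcripts. The counts are per gene, so the TRIP8b isoforms were not separated. Exons of Pklr on the opposite strand cover 17.1% of the exon bases of Hcn3, and counting ignored strand. Reads on exons of both genes are set apart as ambiguous in such counting and go to neither. The 9 reads of Pklr over all 9 samples therefore do not show how many Hcn3 reads were lost there. As all exon bases of Hcn3 entered its length, its level per kb may be understated. The annotated 3' UTR of Hcn4 has 192 bases, against 568 for Hcn2, 1525 for Hcn3 and 1038 for Pex5l, and any Hcn4 reads beyond the annotated end were not counted to it.

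Depth was 19680352 to 34578837 reads on genes in the shNT samples and 18281719 to 30421093 in the shRNA samples. PV IN content was described with 10 markers, including Pvalb, Gad1, Gad2 and Lhx6. All 10 were detected, with a summed level of 4890 to 8060 CPM in the shNT and 2910 to 7060 CPM in the shRNA samples. The series holds no input sample, so these levels do not measure enrichment. The 8 markers of other interneurons, among them Sst and Npy, summed to 536 to 915 CPM in the shNT and 314 to 703 CPM in the shRNA samples. RNA of other cells was present too. The 7 astrocyte markers summed to 1060 to 1470 CPM in the shNT and 1380 to 5400 CPM in the shRNA samples, the 6 oligodendrocyte markers to 375 to 938 and 796 to 1410 CPM, and the 7 CA3 and CA2 pyramidal markers to 442 to 972 and 876 to 1080 CPM. The 10 thalamus and habenula markers, regions where Hcn2 and Hcn4 are known to be abundant, summed to 26.8 to 56.3 and 46.7 to 128 CPM. Of the libraries, shRNA replicate 4 stood apart, with 27.2% of its uniquely aligned reads outside annotated exons (12.4% to 19.8% in the other shRNA samples), the lowest PV IN marker sum and the highest astrocyte marker sum. shNT replicate 2, with 18.6% of reads outside exons, stood apart from the other shNT samples (9.76% to 11.3%).

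Among the 3 channel genes Hcn2 was the most abundant and Hcn4 the least, and Pex5l lay between Hcn2 and Hcn3. To compare genes, CPM normalized by the trimmed mean of M values (TMM) was divided by the length of all annotated exons in kilobases. In the shNT samples these levels were 53.0 ± 13.2 CPM per kb for Hcn2, 13.0 ± 2.41 for Pex5l, 5.16 ± 1.09 for Hcn3 and 0.179 ± 0.0937 for Hcn4 (SD, n = 5). In the shRNA samples the order was the same, with 47.4 ± 18.2, 17.6 ± 1.88, 4.93 ± 1.70 and 0.287 ± 0.168 CPM per kb (SD, n = 4). Hcn2 lay above Pex5l in 9 of 9 samples, by a mean of 1.70 ± 0.509 log2 units (SD), a 3.26-fold difference. Pex5l lay above Hcn3 by 1.59 ± 0.456 log2 units, and Hcn3 above Hcn4 by 4.62 ± 0.593, again in 9 of 9 samples each. For all 6 pairs of genes the exact two-sided sign-flip permutation test over the 9 samples gave p = 0.00391, the smallest it can give, and the same value after Benjamini-Hochberg adjustment over the 6 pairs. This value is reached whenever all 9 differences have the same sign, and the order tested was taken from these same levels. Each mean difference between neighbours was larger than its SD. With the longest transcript in place of all exons, the gap between Hcn2 and Pex5l narrowed to 1.03 log2 units, and Hcn2 lay above Pex5l in 8 of 9 samples, the exception being shRNA replicate 4 (exact sign-flip permutation p = 0.00781).

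**Figure D1:**
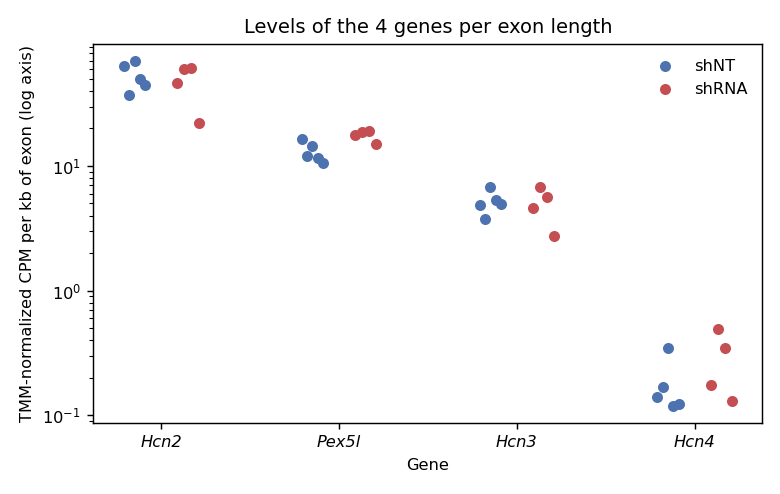
TMM-normalized CPM per kb of exon (log axis) of Hcn2, Pex5l, Hcn3 and Hcn4, with 1 point for each of the 5 shNT (blue) and 4 shRNA (red) samples. The 4 genes occupy separate ranges within every sample, and Hcn4 sits 4.62 log2 units below Hcn3 on average.

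Ablim3 itself was targeted in DG cells and not in the cells sampled, so its level here (mean 17.6 CPM, log2 fold change 0.13, FDR = 0.701 by edgeR) does not check the knockdown. The comparison between groups asked whether the shRNA against Ablim3 in the DG went with altered RNA of these genes. The paper used it to increase mossy fiber input onto PV INs and tested the knockdown in the DG by quantitative PCR. That input was not measured in the data used here. Of the 4 genes, 0 were called in edgeR's quasi-likelihood test, which asked for a false discovery rate (FDR) below 0.05 together with at least a 1.5-fold difference. Of all genes tested 1.75% were called, 1.74% higher and 0.0133% lower in the shRNA samples. The sign was positive for Hcn4 and Pex5l and negative for Hcn2 and Hcn3, where 57.9% of all genes had a positive one. Groups overlapped for all 4, whereas 8.97% of all genes had every shRNA sample above and 6.68% every shRNA sample below the shNT samples. Pex5l alone had an unadjusted p under 0.05, which 20.7% of all genes had with higher and 13.4% with lower levels in the shRNA samples. With edgeR's likelihood ratio and exact tests and with DESeq2 0 of the 4 were called as well, and with limma voom with sample quality weights 1 was, Hcn4. The median log2 fold change of all genes tested was 0.11, and the changes below are to be read against it. All 10 PV IN markers had negative log2 fold changes (median -0.35, 0 called in edgeR, 2 at an unadjusted p under 0.05), with Pvalb at -0.92 (FDR = 0.0678, edgeR) and Tac1 at -0.54 (FDR = 0.133, edgeR), and their part in the values below was not tested. CPM is a share of each library. In bulk samples such as these, fewer PV INs, less RNA per PV IN and a larger share of RNA from other cells cannot be told apart.

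Hcn2, the most abundant of the 3 channel genes, showed no difference between the groups larger than the spread between samples. shNT replicates 1 to 5 held 202.9, 119.4, 221.5, 160.2 and 142.1 CPM, and shRNA replicates 1 to 4 held 147.8, 190.5, 196.9 and 70.4 CPM. The groups overlapped widely, and shRNA replicate 4 was the lowest of the 9 samples. Group means were 169.2 ± 42.3 CPM for shNT (SD, n = 5) and 151.4 ± 58.2 CPM for shRNA (SD, n = 4). The log2 fold change was -0.16 (standard error 0.288, 95% interval -0.79 to 0.47, FDR = 0.708 by edgeR), an interval that leaves room for changes of either sign. Without shRNA replicate 4 it was 0.07, so the lower mean of the shRNA samples rested on that library.

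Hcn3, which encodes the subunit least sensitive to cAMP, likewise showed no difference larger than the spread, with Hcn2 at a 9.83-fold higher level per kb of exon. Normalized Hcn3 was 20.3, 15.6, 28.2, 22.4 and 20.8 CPM across shNT replicates 1 to 5, against 19.3, 27.9, 23.4 and 11.3 CPM across shRNA replicates 1 to 4. The shRNA samples spanned the whole range of the shNT samples except its very top, and replicate 4 was again lowest. Group means were 21.4 ± 4.52 CPM for shNT (SD, n = 5) and 20.5 ± 7.06 CPM for shRNA (SD, n = 4). The log2 fold change was -0.07 (standard error 0.248, 95% interval -0.61 to 0.48, FDR = 0.866, edgeR quasi-likelihood test). It was 0.12 without shRNA replicate 4 and 0.0067 without shNT replicate 3.

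Hcn4, the subunit known from cardiac pacemaker cells and the thalamus, was close to the limit of detection. Its reads numbered 15, 14, 38, 9 and 15 in shNT replicates 1 to 5 and 20, 53, 25 and 11 in shRNA replicates 1 to 4, which is 200 reads in all against 37572 for Hcn2. In CPM these were 0.533, 0.643, 1.30, 0.454 and 0.471 in shNT and 0.665, 1.88, 1.32 and 0.496 in shRNA samples. It reached 1 CPM in 3 of 9 samples, shNT replicate 3 and shRNA replicates 2 and 3, and the groups overlapped. The count of 9 in shNT replicate 4 has an exact Poisson 95% interval of 4.12 to 17.1, and the count of 53 in shRNA replicate 2 one of 39.7 to 69.3, which cover counting error only. Group means were 0.681 ± 0.356 CPM for shNT (SD, n = 5) and 1.09 ± 0.636 CPM for shRNA (SD, n = 4). The log2 fold change was 0.67 (standard error 0.488, 95% interval -0.40 to 1.74, FDR = 0.337, edgeR quasi-likelihood test). Without shRNA replicate 2 it was 0.26, and without shNT replicate 3 it was 1.01. Limma voom with sample quality weights gave 1.12 with an FDR of 0.0362. The sum of the thalamus and habenula markers was highest in shRNA replicate 4 (128 CPM, against 46.7 to 67.0 CPM in the other shRNA samples). That library was also highest in the astrocyte and endothelial markers. Of the thalamus and habenula markers, Lef1 (16.4 ± 23.8 CPM) and Tcf7l2 (12.6 ± 12.2 CPM) varied widely among the shRNA samples (SD, n = 4). The sum therefore does not stand for each marker. The source of the Hcn4 reads was not tested.

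Pex5l was higher in most shRNA samples, by less than the threshold. For shNT replicates 1 to 5 the values were 82.9, 60.3, 73.4, 58.7 and 53.3 CPM, and for shRNA replicates 1 to 4 they were 89.7, 93.8, 96.5 and 75.2 CPM. Replicates 1 to 3 of shRNA lay above every shNT sample, and shRNA replicate 4 lay below shNT replicate 1, the only overlap. Group means were 65.7 ± 12.1 CPM for shNT (SD, n = 5) and 88.8 ± 9.49 CPM for shRNA (SD, n = 4), 1.35-fold apart. The log2 fold change was 0.43 (standard error 0.155, 95% interval 0.09 to 0.77), which did not pass (FDR = 0.0884 in the edgeR fit, unadjusted p = 0.0169). An exact two-sided permutation test of the log2 level over the 126 ways to split the samples gave p = 0.0317, where the smallest possible is 0.00794. The size of the change depended on the handling of gene length. With an offset in each sample for the trend of levels with gene length, the log2 fold change of Pex5l was 0.09 (FDR = 0.672), and with one for exon length 0.23 (FDR = 0.261). Without shNT replicate 5 it was 0.29 and without shNT replicate 1 it was 0.53, with FDR = 0.0497 by edgeR and a change still under 1.5-fold. Limma voom with sample quality weights gave 0.58 with an FDR of 0.00272, also just under 1.5-fold.

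**Figure D2:**
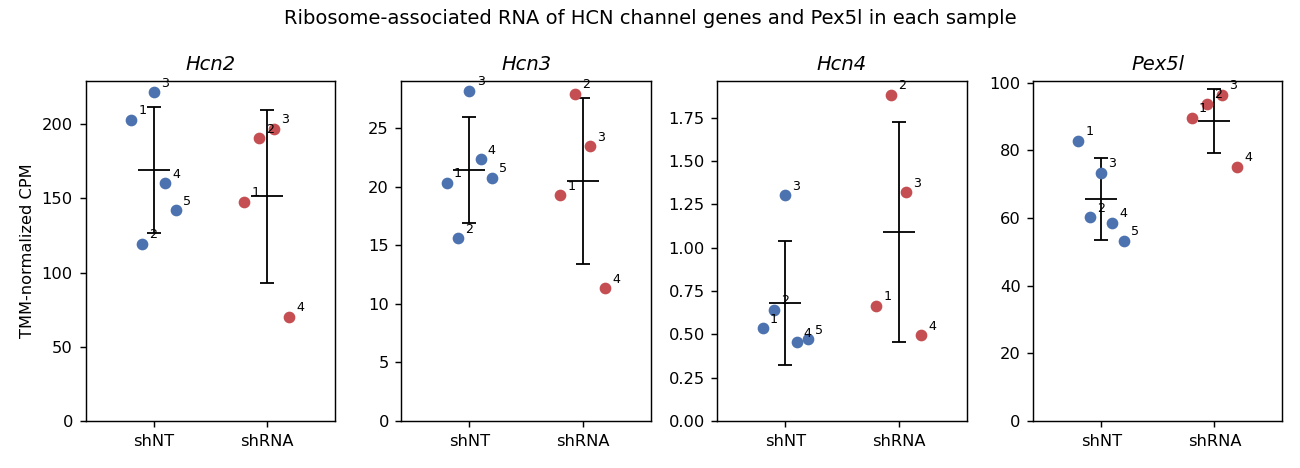
TMM-normalized CPM of the 4 genes in each shNT (blue, n = 5) and shRNA (red, n = 4) sample, numbered by replicate, with the mean and SD as black bars; each panel has its own axis from 0. Groups overlap in all 4 genes, and 3 of 4 shRNA samples exceed every shNT sample in Pex5l.

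Within the larger set of sample names (number 31, 3 samples of each group) the log2 fold changes were -0.05 for Hcn2, 0.11 for Hcn3, 0.60 for Hcn4 and 0.34 for Pex5l. The smaller set (number 32) has 2 shNT samples and 1 shRNA sample, too few for a test of its own, and what the sets stand for is not given in the sources used here. With the set as a block, Pex5l stood at 0.39 (FDR = 0.102, edgeR).

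Relative to Hcn2 in the same library, the level of Pex5l was higher in most shRNA than shNT samples. The ratio of Pex5l to Hcn2, both per kb of exon, was 0.259, 0.320, 0.210, 0.232 and 0.238 in shNT replicates 1 to 5 and 0.385, 0.312, 0.311 and 0.678 in shRNA replicates 1 to 4. The shRNA samples lay above the shNT samples except shNT replicate 2, which exceeded shRNA replicates 2 and 3. The ratio of Hcn3 to Hcn2 held within 0.0771 to 0.112 in the shNT and 0.0915 to 0.124 in the shRNA samples. These ratios were formed after the values had been seen and are given without a test.

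Hcn2 and Hcn3 varied together from sample to sample, whereas Pex5l followed them less over all samples. Pearson's r of log2 CPM across the 9 samples was 0.929 for Hcn2 and Hcn3, 0.313 for Hcn2 and Pex5l, and 0.233 for Hcn3 and Pex5l. After subtraction of each group's mean these were 0.931, 0.764 and 0.525. The points share their libraries, so these values are descriptions.

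The levels of Hcn2 and Hcn3 also moved with the composition of the library, tested here as 8 relations (4 genes, 2 measures). Hcn2 was lower where more reads lay outside exons (Pearson's r = -0.881, exact permutation p = 0.00628, adjusted p = 0.0167 by Benjamini-Hochberg over the 8; Spearman's rho = -0.733, p = 0.0311, adjusted p = 0.134; n = 9). Hcn3 did likewise (r = -0.871, exact permutation p = 0.00464, adjusted p = 0.0167; rho = -0.70, p = 0.0433, adjusted p = 0.134). Without shRNA replicates 1 and 4, whose percentages lay farthest from the median, r came to -0.689 and -0.705. Within name set 31, which keeps shRNA replicate 1, it was -0.924 and -0.754 (n = 6). With the log2 of the summed level of the 10 PV IN markers, r was 0.854 for Hcn2 (exact permutation p = 0.011, adjusted p = 0.022; rho = 0.433, p = 0.25, adjusted p = 0.40) and 0.878 for Hcn3 (exact permutation p = 0.00419, adjusted p = 0.0167; rho = 0.683, p = 0.0503, adjusted p = 0.134). Without shNT replicate 2 and shRNA replicate 4 these fell to 0.208 and 0.427, so those relations with the PV IN markers rested on those samples. Within name set 31, which keeps shNT replicate 2, r was 0.942 and 0.853. For Pex5l r was 0.107 with the share outside exons (exact permutation p = 0.793, adjusted p = 0.793; rho = 0.333, p = 0.385, adjusted p = 0.514) and -0.165 with the PV IN markers (exact permutation p = 0.699, adjusted p = 0.793; rho = -0.433, p = 0.25, adjusted p = 0.40). For Hcn4 r was -0.288 (exact permutation p = 0.468, adjusted p = 0.70; rho = 0.133, p = 0.744, adjusted p = 0.744) and 0.256 (exact permutation p = 0.525, adjusted p = 0.70; rho = -0.217, p = 0.581, adjusted p = 0.664). Without the same pairs of samples r was -0.11 and -0.677 for Pex5l and -0.000324 and -0.0977 for Hcn4. After subtraction of each group's mean, all 4 genes had the same signs of r. With the share outside exons it was -0.914 for Hcn2, -0.941 for Hcn3, -0.653 for Hcn4 and -0.505 for Pex5l. With the PV IN markers it was 0.88, 0.949, 0.609 and 0.398, in the same order. These values within groups are given without a test.

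**Figure D3:**
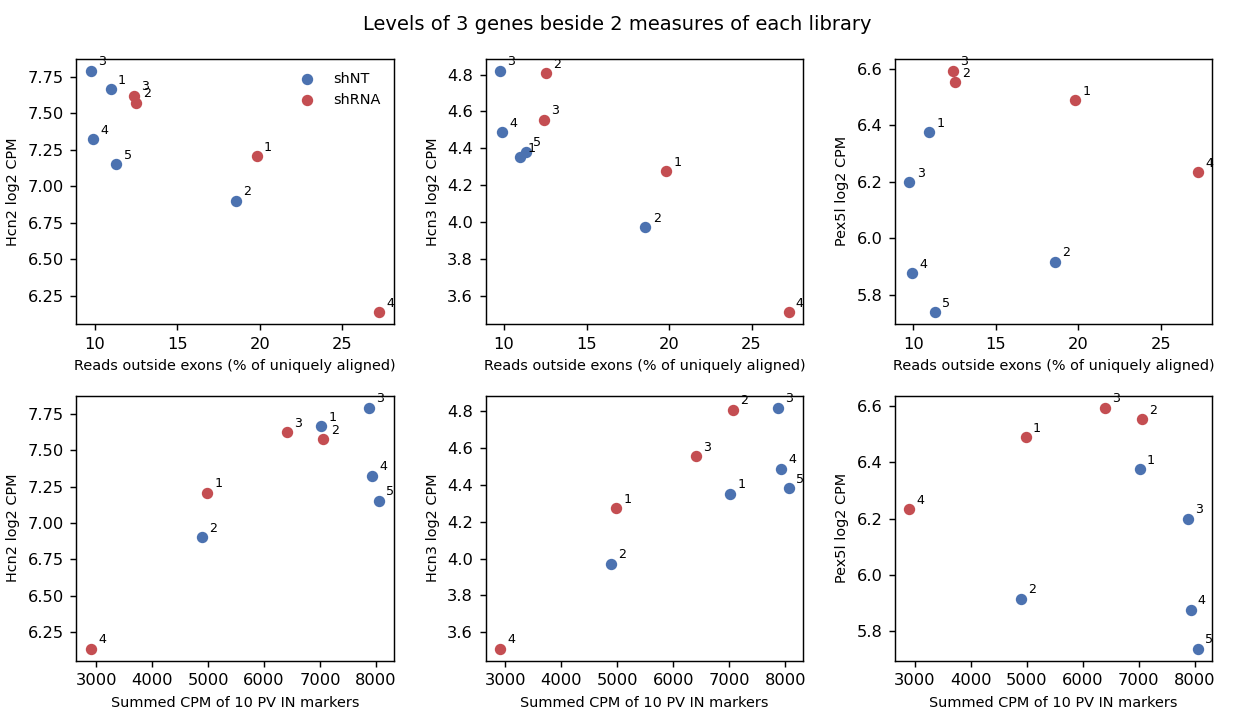
log2 CPM of Hcn2, Hcn3 and Pex5l in each shNT (blue) and shRNA (red) sample, numbered by replicate, against the percent of uniquely aligned reads outside annotated exons (top) and the summed CPM of 10 PV IN markers (bottom). Hcn2 and Hcn3 are lowest of all samples in shRNA replicate 4, which has 27.2% of reads outside exons, whereas Pex5l is lowest there among the shRNA samples only.

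When the percentage of reads lying outside exons entered the fit as a covariate, the log2 fold change turned positive for Hcn2 (0.29, FDR = 0.260) and Hcn3 (0.33, FDR = 0.159) and was 0.56 for Pex5l (FDR = 0.0973) and 1.12 for Hcn4 (FDR = 0.126, edgeR quasi-likelihood test), and 0 of the 4 genes were called.

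The genes whose log2 levels followed each member most closely over the 9 samples were sought among 9494 genes with a mean of at least 10 CPM (9495 for Hcn4, which is below that mean). For Hcn2 they were Entpd4 (Pearson's r = 0.990), Rgs8 (0.986), a regulator of G protein signaling, and Syngr1 (0.985), a synaptic vesicle protein. For Hcn3 they were Vipar (0.987), Ptbp2 (0.984), a neuronal splicing regulator, and Crtac1 (0.984). For Hcn4 the values were lower, with Zfp623 at 0.884, Dbc1 at 0.854 and Nalcn, a sodium leak channel, at 0.838. For Pex5l the nearest were Camta2 (0.988), a transcriptional activator, and Ppm1e (0.988), a phosphatase. Camta2 and Ppm1e had log2 fold changes of 0.81 and 0.52, neither called (FDR 0.0816 and 0.0837, edgeR quasi-likelihood test). Depth, library composition and gene length are shared by these points, and their part in each r was not tested.

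Genes around the HCN channels fell into 3 lists. In the list of proteins reported to bind or modify HCN channels, 14 of 15 genes were tested, 10 with positive and 4 with negative log2 fold changes, a median of 0.20, and 0 called (edgeR quasi-likelihood test). At an unadjusted p under 0.05 there were 3 higher and 2 lower, where 20.7% and 13.4% of all genes tested were. A positive sign was found in 57.9% of all genes. Kcne2, a small auxiliary subunit, was below the CPM filter. The lowest p values belonged to Flna, the actin crosslinker filamin A (15.3 ± 8.19 CPM in shNT, n = 5, and 50.6 ± 38.7 CPM in shRNA samples, n = 4, SD; log2 fold change 1.73, FDR = 0.0651 by edgeR), Cav3, caveolin 3 (17.7 ± 4.36 and 10.6 ± 2.38 CPM, -0.74, FDR = 0.0680), and Magi2, a synaptic scaffold (63.4 ± 10.6 and 88.5 ± 11.2 CPM, 0.48, FDR = 0.0717). Without shRNA replicate 4, the library highest in astrocyte and endothelial markers, Flna stood at 1.05 (FDR = 0.164, edgeR), with the covariate for reads outside exons at 0.67 and within name set 31 at 0.68. Flna passed the threshold without shRNA replicate 2 (2.01, FDR = 0.0493, edgeR) and Cav3 without shNT replicate 1 (-0.83, FDR = 0.0473). Groups did not overlap in Cav3 and Magi2, as in 15.6% of all genes tested. Pex5, the peroxisomal import receptor related to Pex5l, stood at -0.27 on the log2 scale (FDR = 0.394, edgeR).

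The enzymes that make and break down cAMP, the ligand of HCN channels, held the called genes. All 24 were tested, 22 had positive log2 fold changes with a median of 0.54, and 2 rose, against 1.74% of all genes called higher. At an unadjusted p under 0.05 there were 10 higher and 0 lower, where 20.7% and 13.4% of all genes tested were. Positive log2 fold changes made up 57.9% over all genes. Pde1a, a calcium-dependent phosphodiesterase, rose by 1.13 on the log2 scale (standard error 0.190), from 36.7 ± 9.02 CPM in shNT (SD, n = 5) to 80.7 ± 10.9 CPM in shRNA samples (SD, n = 4), with FDR = 0.0403 by edgeR. Pde4b, a cAMP-specific phosphodiesterase, rose from 22.7 ± 4.13 to 49.5 ± 14.3 CPM, also by 1.13 on the log2 scale (standard error 0.202, FDR = 0.0403). Adcy9, an adenylyl cyclase, had 19.8 ± 3.88 and 32.7 ± 3.63 CPM and differed by 0.73 on the log2 scale, its FDR of 0.0503 just above the threshold, which it passed without shNT replicate 1 or 2 (FDR = 0.0417 and 0.0426, edgeR). The groups did not overlap in any of these 3 genes, which were named by their calls or low p values, a choice that favours separated groups. Of all 24 genes 5 had every shRNA sample above the shNT samples, against 8.97% of all genes tested. The calls of Pde1a and Pde4b were lost, at an FDR of 0.0744 to 0.169, without shNT replicate 3, 4 or 5 or without shRNA replicate 1 or 3. In each of these omissions 0 of all genes tested were called. Both calls were also lost with library size only, upper quartile scaling, filterByExpr, a replicate block, the covariate for reads outside exons and the offset for exon length. Over the omissions of any 1 sample the log2 fold changes ran from 0.94 to 1.20 for Pde1a and from 0.90 to 1.20 for Pde4b. With the offset for gene length they were 0.74 and 0.70 (FDR = 0.0708 and 0.0684), and within name set 31 0.85 and 0.74 (FDR = 0.219 and 0.242). All 7 astrocyte and all 6 oligodendrocyte markers also had positive log2 fold changes (medians 1.34 and 0.79, 0 called in edgeR, all but 1 astrocyte marker at an unadjusted p under 0.05). So did 6 of 7 CA3 and CA2 pyramidal markers (median 0.68, Grik4 called at 1.17, FDR = 0.0403 by edgeR), all 3 oligodendrocyte precursor markers (median 1.01, Pdgfra called at 1.21, FDR = 0.0403), all 5 DG granule cell markers (median 0.58, 0 called) and all 5 nuclear-retained RNAs (median 1.16, 0 called). Of the thalamus and habenula markers 6 of 7 tested did (median 0.94, Nwd2 called), of the microglia markers 4 of 5 (median 0.32, 0 called), of the endothelial markers all 5 (median 0.54, 0 called) and of the markers of other interneurons 4 of 8 (median 0.26, Reln called). The part of these cells and RNAs in the changes of Pde1a and Pde4b was not tested.

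Of 20 further genes with a cyclic nucleotide-binding or homologous domain, 14 were tested, 10 with positive and 4 with negative log2 fold changes, a median of 0.26, and 0 called (edgeR quasi-likelihood test). At an unadjusted p under 0.05 there were 5 higher and 0 lower, where 20.7% and 13.4% of all genes tested were. Over all genes 57.9% had a positive sign. The lowest p values were those of Kcnh3, a voltage-gated potassium channel (16.3 ± 9.17 and 37.7 ± 5.19 CPM; log2 fold change 1.21, FDR = 0.0651), Rapgef3, a cAMP-activated exchange factor (17.7 ± 3.86 and 31.9 ± 15.4 CPM; 0.85, FDR = 0.0752), and Kcnh4 (0.404 ± 0.165 and 1.24 ± 1.17 CPM; 1.59, FDR = 0.0973). Without shRNA replicate 4 Rapgef3 stood at 0.44 (FDR = 0.168, edgeR) and Kcnh4 at 0.72 (FDR = 0.337), and without shNT replicate 1 Kcnh3 passed the threshold (1.56, FDR = 0.0213). Within name set 31 Kcnh3, Rapgef3 and Kcnh4 stood at 0.68, 0.27 and 0.50. The 6 genes below the filter were Cnga1, Cnga2, Cnga3, Cngb1, Cngb3 and Kcnh8, and Cnga1 and Cngb3 had 0 reads in all samples. Over the 3 lists, other tests called 10 genes (edgeR's likelihood ratio and exact tests and DESeq2, each) or 18 (limma voom) in place of 2.

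**Figure D4:**
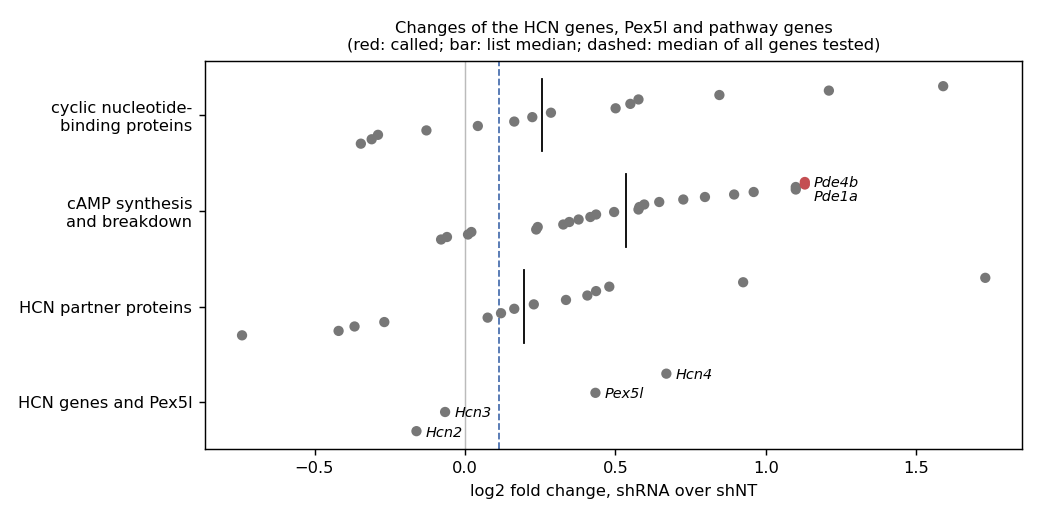
log2 fold change (shRNA over shNT) of Hcn2, Hcn3, Hcn4 and Pex5l and of the tested genes of 3 pathway lists, 1 point per gene, with list medians as bars and the median of all genes tested (0.11) as a dashed line. Red points are the called genes Pde1a and Pde4b; Hcn2 and Hcn3 lie below 0 and Pex5l and Hcn4 above.

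**Figure D5:**
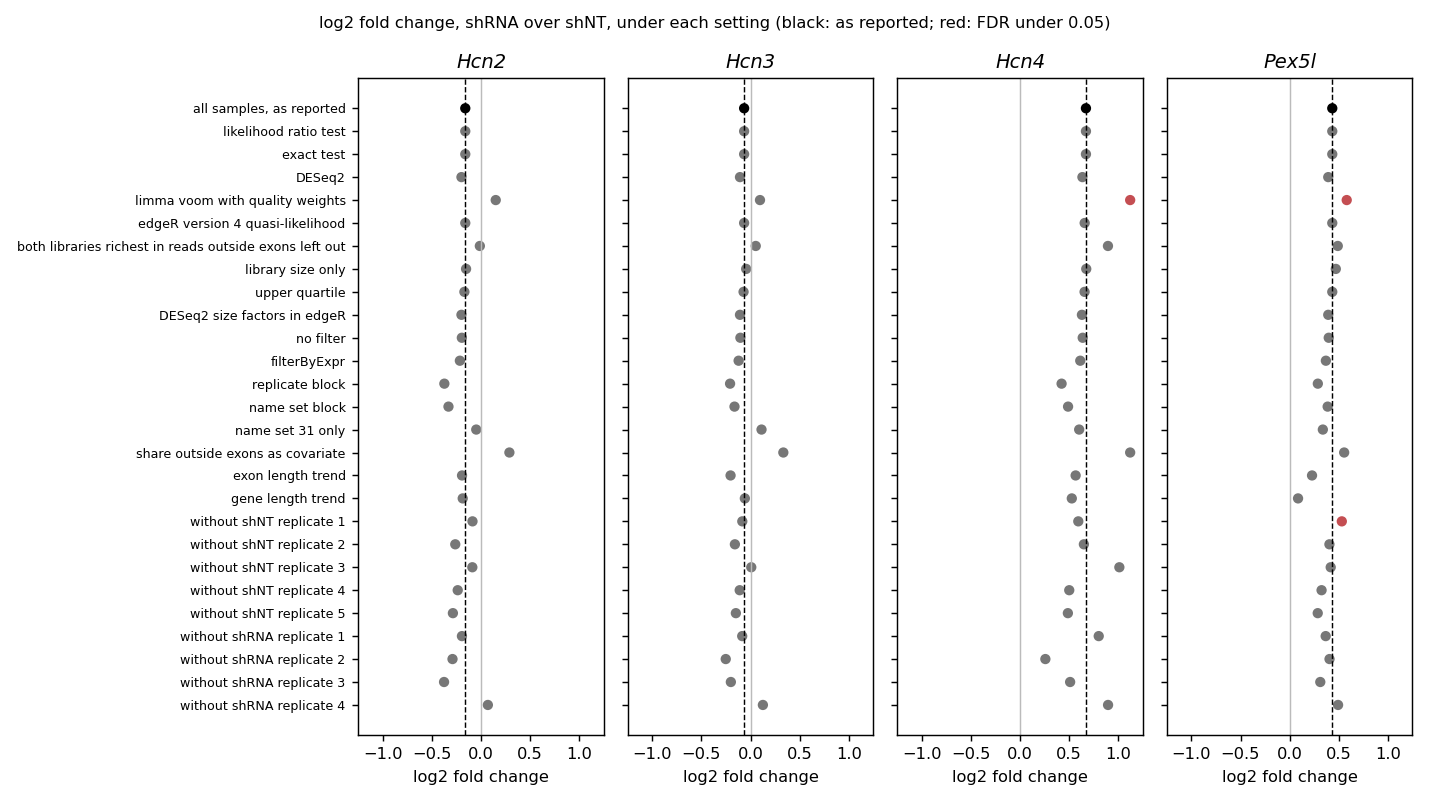
log2 fold change (shRNA over shNT) of each gene with all samples as reported (black) and under each alternative, red where the FDR is under 0.05. Hcn2 and Hcn3 change sign with several settings, while Hcn4 and Pex5l are positive in all, Pex5l from 0.09 with the gene length trend to 0.58 with limma voom.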

How the data were processed

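RNA was sequenced from anti-HA immunoprecipitates with SMARTer v4 libraries and 50 bp reads. The deposited values are raw counts per gene, made by the authors with STAR on mm9 and with HTSeq 0.6.0 ignoring strand, with reads outside genes listed apart and left out of library sizes (71.4% or more of uniquely aligned reads lay on genes). The annotation used is not given in the sources used here. Positions, lengths and 37205 names came from GENCODE vM1, which is on the same build.

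TMM scaling and testing covered the 15069 genes that 1 or more samples held at 1 CPM or above, with edgeR 4.0.16 in R 4.3.3 (quasi-likelihood test in the default form of that version, condition as the only term, Benjamini-Hochberg over all genes). Calls needed an FDR under 0.05 and 1.5-fold. log2 levels used a prior count of 2. limma 3.58.1 and DESeq2 1.42.0 served as alternatives. The fit was checked on simulated counts. Levels between genes were compared per kb of exon.

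The genes and lists were chosen with earlier results of these data known. Named from each pathway list were the called genes and the 3 lowest p values, and for each member the 3 genes with the highest correlation; Adcy9 fell under the p rule, while Kcne2 and Pex5 were named after their values were seen. Some other genes, among them family members and 1 that the correlation rule selected, are not reported here.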

Additional observations from a re-analysis of the deposited data

Results flagged for a closer look

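In 32 groups of values (each of the 4 genes, the share of reads outside exons and 11 marker sums, in each group of samples), a sample far from the rest of its group was found 6 times, where chance gives about 1.6. Hcn4 in shNT replicate 3 was 1.3 CPM, against 0.454 to 0.643 CPM in the other shNT samples. Reads outside exons made up 18.6% in shNT replicate 2, against 9.76% to 11.3%, and its sum of nuclear-retained RNAs was 15000 CPM, against 1660 to 3010 CPM. In shRNA replicate 4 the astrocyte markers summed to 5400 CPM, against 1380 to 1620 CPM in the other shRNA samples, and the endothelial markers to 960 CPM, against 69.9 to 129 CPM. In shRNA replicate 3 the microglia markers summed to 80.9 CPM, against 69.7 to 71.3 CPM. Hcn2, Hcn3 and Pex5l had no such sample by this measure.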

How the results depend on the processing

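The mean order of the 4 levels held with the longest transcript (in shRNA replicate 4 Pex5l then lay above Hcn2), in shNT samples alone (where the smallest p is 0.0625) and without each sample. Of 26 alternatives, Pex5l stayed positive and uncalled in all 26, and Hcn4 stayed positive in all 26 (0.26 to 1.12) but was called with limma voom (1.12, FDR = 0.0362). The log2 fold change of Hcn2 turned positive with limma voom (0.15) and with the percentage of reads lying outside exons as a covariate (0.29), and ranged from -0.377 to 0.0689 with 1 sample left out. That of Hcn3 did so with limma voom (0.10), with that covariate (0.33), within name set 31 (0.11) and without both shNT replicate 2 and shRNA replicate 4 (0.0522), and ranged from -0.253 to 0.125 with 1 sample left out. Both had been within 1 standard error of 0. The causes were not tested.

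The number of called genes varied far more. Against 264 of all genes and 2 of the 3 pathway lists, there were 2230 and 10 with the likelihood ratio test, 2193 and 10 with the exact test, 2365 and 10 with DESeq2, 2919 and 18 with limma voom, 397 and 3 with edgeR's version 4 quasi-likelihood form, 680 and 4 without both libraries, 515 and 4 without a filter, 377 and 3 with the name set as a block, and 0 and 0 each with library size only, upper quartile scaling, filterByExpr, name set 31 alone, the covariate and either length trend. With 1 sample left out there were 0 to 1417 and 0 to 7. The share of calls that were higher was 99.2%, against 75.7% with the likelihood ratio test, 75.6% with the exact test, 64.8% with DESeq2 and 78.8% with limma voom. The version 4 form and the omission of both libraries were added after the data were seen, and the form of edgeR version 3 was the one reported, so it was not run apart.

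Groups share replicate numbers, and the deviations of same-numbered samples from their group means had correlations of both signs (r = -0.267, -0.641, 0.486 and -0.181). These values gave no sign of a pairing, but they cannot exclude one, because differences in library composition also enter them. With a replicate block 34 genes and 0 pathway genes were called, and the log2 fold changes were -0.37, -0.21, 0.42 and 0.29 for Hcn2, Hcn3, Hcn4 and Pex5l. At 9 to 53 reads per sample, depth limits Hcn4, and with 5 and 4 pools the intervals of Hcn2 and Hcn3 run from -0.79 to 0.47 and from -0.61 to 0.48 on the log2 scale.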
